A study of Mus musculus with 4 samples.

Results

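The array labelled L1210-Fbxw11a was compared with the array labelled L1210-Control, 2 of the 4 arrays in the series, across all gene probes. L1210 is a mouse lymphocytic leukemia line, labelled here as DBA subline 212, grown in RPMI medium with fetal bovine serum. Both lines had been infected with virus, sorted for the GFP marker that the virus carries and kept as stable populations; the L1210-Fbxw11a line carried Fbxw11a, the full-length splice variant of Fbxw11, and the control line was transfected with a control. L1210-Fbxw11c and L1210-Fbxw11d carried shorter splice variants, and their values are set beside the main comparison where they help to read it. Total RNA of each line was labelled with Cy3 and hybridised to 1 Agilent mouse array, so no line has a replicate array, each line is 1 sorted population, and neither a p-value nor a standard deviation between cultures can be given. The L1210-Fbxw11a, L1210-Control and L1210-Fbxw11c arrays lay on slide 1 and L1210-Fbxw11d on slide 2.

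Fbxw11, also called β-TrCP2, is the substrate-binding subunit of an SCF ubiquitin ligase. The ligase attaches ubiquitin to proteins that carry a phosphorylated degron and so marks them for the proteasome. Its best known substrates are IκBα, which holds NF-κB in the cytoplasm, and β-catenin, which drives TCF target genes in the Wnt pathway. In lymphocytes, NF-κB controls chemokines, cytokines, survival genes and its own inhibitors. The array asked which transcripts differed in a line with added Fbxw11a.

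The 59305 gene spots on an array made up 55681 probes. A symbol was attached to 33822 of them, 24561 different ones in all. Signals are given on the scale of the control array after both arrays were scaled to their 75th percentile, 620.2 for L1210-Control and 627 for L1210-Fbxw11a before scaling. Probes that rose clear of background on neither array were set aside, which left 37675 probes and 17945 genes. Of all probes, 33854 were well above background on both arrays, 2876 on the L1210-Fbxw11a array only and 947 on the control array only. The detection floor, the lowest signal of a probe with every spot well above background, was 14.4 on the L1210-Fbxw11a array and 18.1 on the control array; its part in the uneven numbers was not tested. Where a probe was measured on 1 array only, its fold is the smallest that the floor allows and is written "at least". The spread between spots of probes printed 10 times was the one replicate error in the files. Among 106 such probes of 1000 to 10000 it was 0.070 on the log2 scale on L1210-Fbxw11a and 0.056 on L1210-Control, or 1.06-fold for a ratio of 2 spots. Among 170 such probes below 100 it was 0.42 and 0.38, or 1.48-fold. Differences that arise in culture, in sorting or in extraction of the RNA are not in these spreads. The scanner software put the error of a bright single spot at 10.0% of its signal. The E1A spike-in RNAs were higher by 0.13 ± 0.054 (log2, SD over 8 probes) on L1210-Fbxw11a.

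The Fbxw11 gene itself was read by 2 probes. The first gave 13153 for the control line and 16339 for L1210-Fbxw11a, with 15871 for L1210-Fbxw11c and 13383 for L1210-Fbxw11d, and the second gave 9730 and 11244, with 11327 and 10990. The L1210-Fbxw11a signals were 1.24-fold and 1.16-fold above control, under the 2-fold line. Both probes lie at the far end of the long transcript on chromosome 11, and the files do not say whether the viral insert holds that stretch, so they do not check the transgene. All 14 listed F-box and SCF components, among them Btrc, the paralog of Fbxw11, and the scaffold Cul1, were measured on both arrays. None was 2-fold apart, and their log2 ratios lay from -0.19 to 0.31 with a median of 0.08, which was below 0 with spike-in centring.

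The lineage markers did not all fit the name of the line. Of 28 B lineage markers on the array, 12 passed the background criterion in L1210-Control and 13 in L1210-Fbxw11a, whereas Cd79b, Ms4a1, Ebf1, Rag1, Rag2, Il7r and Igll1 were not well above background on either. Of 31 T lineage markers, 19 and 22 were, without Cd3d, Cd3g and Thy1. Other lineage markers were measured: Blnk, a B cell adaptor, gave 18268 and 23136, Cd4 3020 and 3036, and Cd79a 87.4 and 90.4. Of 32 myeloid markers 23 were measured and 7 were bright, with Csf3r, the G-CSF receptor, at 56408 and 52954. Among markers picked after their values were seen, Ptprc, the pan-leukocyte antigen CD45, gave 42.9 and 36.1, and all 3 probes of Ikzf1, which encodes a lymphoid transcription factor, were not well above background. Of 30 epithelial and keratin genes, 20 passed the background criterion in L1210-Control and 22 in L1210-Fbxw11a, and 7 were bright. Of 20 fibroblast and stromal markers, 11 and 15 passed, and 5 were bright. Signals were high on the probes for Krt8 (60308 and 97158) and Krt18 (60374 and 89044), which encode keratins of simple epithelia. They were also high for Sparc (81523 and 136277), a matrix protein, and for Vim (158713 and 171727), the mesenchymal intermediate filament. The other 2 arrays showed the same: Krt8 was 86925 and 92763, and Ptprc 29.7 and 31.8, in L1210-Fbxw11c and L1210-Fbxw11d. The samples are therefore called by their labels throughout.

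At 2-fold or more, 1022 probes were higher in L1210-Fbxw11a (2.71% of those compared) and 910 were lower (2.42%). By gene, 442 were higher (2.46%) and 371 lower (2.07%). Most of these were dim. With normexp, another background correction, 260 probes were higher and 259 lower. Where both arrays had to be above background, 516 were higher and 463 lower. Of the 9539 probes whose brighter signal was from 30 to 100, 585 were 2-fold higher and 561 lower. The share 2-fold apart was 8.83% from 100 to 300, 1.83% from 300 to 1000, 0.684% from 1000 to 10000 and 0.256% above 10000. Among the 11656 bright probes, those over 1000 before scaling on the brighter array, 43 were higher (0.369%) and 20 were lower (0.172%), and 97.9% lay within 1.5-fold. By gene, 33 of 7789 bright genes were higher (0.424%) and 17 were lower (0.218%). Every called bright probe was well above background on both arrays. With both arrays centred on the spike-in RNAs, a setting chosen after the data were seen that moves all ratios by -0.13, 29 bright probes were higher and 28 lower, 802 probes were higher and 1155 lower, and 344 genes were higher and 457 lower. At the limits, Dynap was 2.01-fold higher and Arl4d 1.997-fold, just outside, Gvin1 was 2.05-fold lower and Galk2 1.99-fold, and the called genes nearest to the brightness line, by signal before scaling, were Oasl1 (1059) above it and Mmp24 (935) below it among those higher, and Gm1966 (1048) and Bcl2l15 (967) among those lower.

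**Figure D1:**
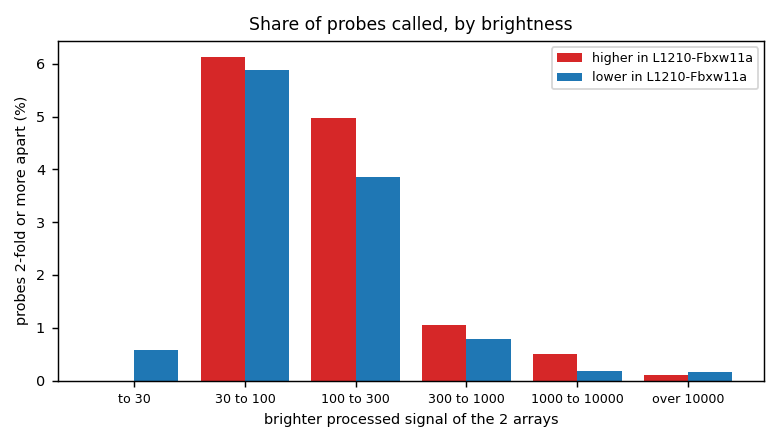
Bars give the share of probes, in percent, that were 2-fold or more higher (red) or lower (blue) in L1210-Fbxw11a than in L1210-Control, by the brighter processed signal of the 2 arrays. The shares drop from 6.13% higher and 5.88% lower at 30 to 100 to 0.102% and 0.153% above 10000.

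**Figure D2:**
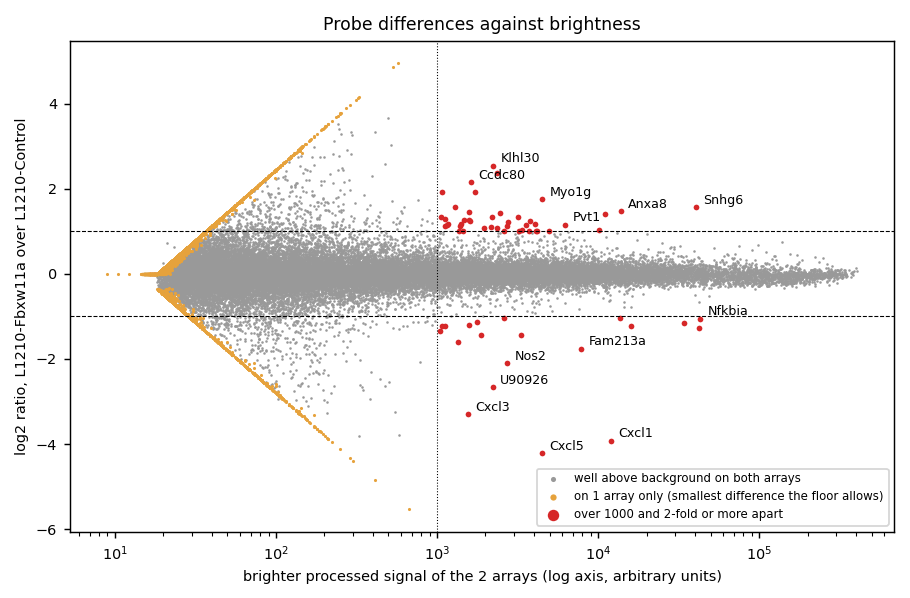
Each point is 1 probe, with the brighter processed signal of the 2 arrays on a log axis and the log2 ratio of L1210-Fbxw11a over L1210-Control. Red points are the 63 bright probes 2-fold or more apart. Orange points were measured on 1 array only, so their ratios are bounds against the detection floor or the probe's own signal. Cxcl5 (-4.22) and Cxcl1 (-3.92) stand lowest among bright probes.

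The largest falls among bright genes were in chemokines that draw neutrophils. Cxcl1, Cxcl2, Cxcl3 and Cxcl5 encode ligands of the receptor CXCR2, and their genes lie close together on chromosome 5. The 250 bases before the start of Cxcl1, Cxcl2, Cxcl3 and of Nfkbia, the gene of IκBα, are shown because they held a κB-like motif. The windows of Ier3, Ifnb1, Fas and Edn1, all at least 2-fold lower, were searched too, held 0 matches and are not printed. They are RefSeq sequences of build GRCm38.p6, written 5′ to 3′ on the strand of the gene at chr5:90890995-90891244 (+), chr5:90903649-90903898 (+), chr5:90785851-90786100 (+) and chr12:55492648-55492897 (-). Capitals mark matches to 2 κB-like motifs, GGGNNTTTCC and GGGNNTTCCC, searched on both strands, where a stretch that matches on both strands counts once.
Cxcl1: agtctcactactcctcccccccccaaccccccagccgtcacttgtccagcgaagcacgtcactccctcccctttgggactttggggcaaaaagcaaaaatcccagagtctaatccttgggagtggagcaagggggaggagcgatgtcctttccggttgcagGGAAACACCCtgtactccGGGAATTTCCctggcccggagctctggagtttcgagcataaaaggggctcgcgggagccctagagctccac
Cxcl2: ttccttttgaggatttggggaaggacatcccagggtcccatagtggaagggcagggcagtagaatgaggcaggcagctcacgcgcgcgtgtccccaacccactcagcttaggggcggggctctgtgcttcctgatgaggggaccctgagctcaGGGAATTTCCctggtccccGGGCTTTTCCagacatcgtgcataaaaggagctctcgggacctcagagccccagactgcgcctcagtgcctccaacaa
Cxcl3: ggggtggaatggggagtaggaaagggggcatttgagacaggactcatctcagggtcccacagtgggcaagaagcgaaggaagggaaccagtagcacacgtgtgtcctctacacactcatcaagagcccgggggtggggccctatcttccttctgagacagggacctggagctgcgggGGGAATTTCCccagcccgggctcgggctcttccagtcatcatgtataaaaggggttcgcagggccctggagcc
Nfkbia: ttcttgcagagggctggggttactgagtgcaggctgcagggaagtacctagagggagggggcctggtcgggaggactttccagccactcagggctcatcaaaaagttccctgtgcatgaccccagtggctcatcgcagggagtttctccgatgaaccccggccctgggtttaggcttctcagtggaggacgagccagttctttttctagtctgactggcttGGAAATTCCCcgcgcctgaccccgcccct
The Cxcl1 and Cxcl2 windows held 2 matches each and the Cxcl3 and Nfkbia windows 1 each, beginning 97 to 29 bases before the start. Of all 32851 windows of this length in the table, 2.82% held a match. Of the 10 bright genes at least 2-fold lower for which the table had a window, 3 held one (Cxcl1, Cxcl3 and Nfkbia). Of the 18 bright genes at least 2-fold higher, 0 did, against 3.86% of all 12447 compared genes with a window. Cxcl1 and Cxcl3 lie close together and hold the same GGGAATTTCC, so they may not be independent counts. Cxcl5, Nos2 and Cxcl16 had no window. A match is a run of letters and was not tested as a binding site. Near matches to the 2 motifs were not counted, such as gggaaattcc in the Ifnb1 window. A window with 0 matches is therefore not shown to lack a κB site.

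Cxcl5 gave 4509 in L1210-Control and 243 in L1210-Fbxw11a, 18.6-fold lower, with 518 in L1210-Fbxw11c and 427 in L1210-Fbxw11d. Cxcl1 gave 11997 and 793, 15.1-fold lower, with 1175 and 1181 in the other two lines. Cxcl3 gave 1552 and 158, 9.84-fold lower, with 392 and 416. For each of these genes the control array stood highest of the 4 and L1210-Fbxw11a lowest, so the fall rests on the single control array, which all 3 comparisons share. Cxcl2, at a middle signal, gave 578 and 41.5, 13.9-fold lower, with 50.4 and 46.6. Cxcl16, which is made as a membrane-bound chemokine, gave 1357 and 450, 3.02-fold lower. Others were lower by less: Cxcl10, an interferon-induced T cell attractant, gave 7652 and 4287, and Ccl2, a monocyte attractant, 996 and 580 (means of 10 spots). Cxcl11 (201762 and 216567) and Ccl25 (1211 and 1279) were near the control level. Of 32 listed chemokines 19 were measured; 9 were 2-fold or more lower and 0 higher, beside 2.07% and 2.46% of all compared genes, with a median log2 ratio of -0.84 beside 0.0065 over all compared genes. Without the filter on dim probes the list's median was -0.36. The other called members were dim: Ccl5 (127 and 56.0), Ccl7 (59.0 and 17.4), Ccl17 (43.5 and 21.5) and Xcl1, which was measured in L1210-Control only (99.0).

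**Figure D3:**
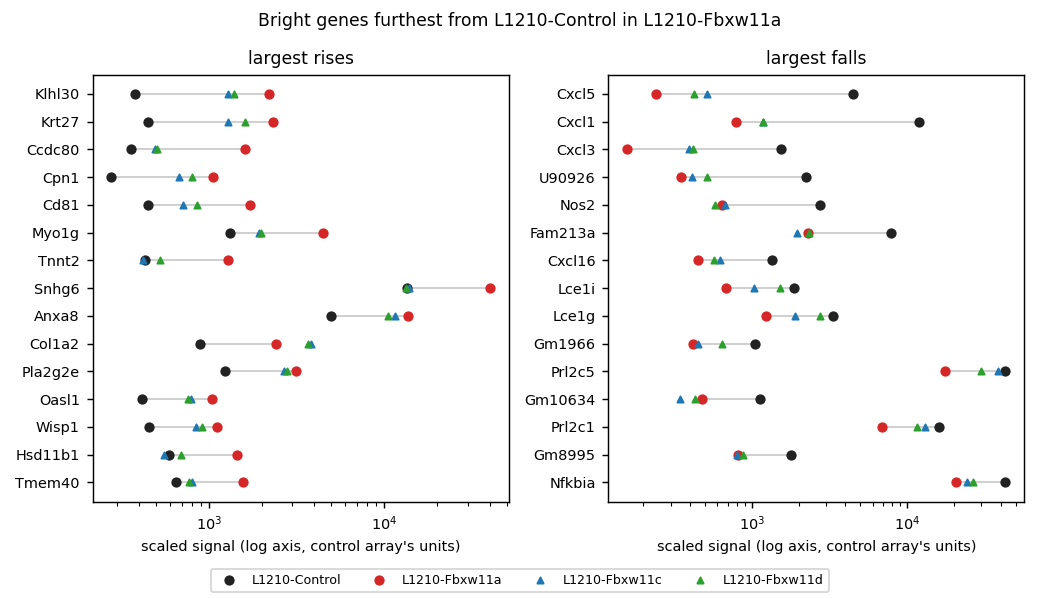
Scaled signals on a log axis for the 15 bright genes with the largest rises and the 15 with the largest falls in L1210-Fbxw11a (red) against L1210-Control (black), with L1210-Fbxw11c (blue) and L1210-Fbxw11d (green) as triangles. For Cxcl1 the 4 points are 11997, 793, 1175 and 1181, and for Snhg6 13503, 39964, 13893 and 13345.

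Some members of a wider list of NF-κB targets were lower and others were near control. Of 32 measured targets, 9 were 2-fold or more lower and 1 was higher, beside 2.07% and 2.46% of all compared genes, and 26 lay below 0, with a median of -0.69 that was -0.33 without the filter on dim probes. This list shares members with the chemokine list, and of those called it shares Cxcl1, Cxcl2 and Ccl5. Nos2, the inducible nitric oxide synthase, gave 2737 and 639, 4.28-fold lower, with 669 and 579 in the other two lines. Nfkbia gave 43025 and 20610, 2.09-fold lower, with 24464 and 26422. Ier3, an early response survival gene, gave 13652 and 6615, 2.06-fold lower, with 6495 and 7996, and missed the 2-fold line (log2 -0.99) with normexp, another background correction. Fas, the death receptor, gave 780 and 186, 4.20-fold lower, whereas Fasl, its ligand, gave 517 and 1145, 2.22-fold higher. The others called were Il6 (104 and 13.6), Ccl5 and Csf2 (74.7 and below the floor). Ptgs2, which makes prostaglandins, gave 5155 and 2818 and did not reach 2-fold. Myc (11006 and 10371), Bcl2l1 (16022 and 15378), Tnfaip3 (1409 and 1314) and Sod2 (56778 and 64760) were at most 1.14-fold apart. The 1 member that was higher, Saa3, was dim, at 41.2 against a control signal below the floor.

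Genes of the NF-κB machinery itself moved less. Of 28 measured, only Nfkbia was 2-fold apart, a share near the 2.07% lower of all compared genes, 20 lay below 0 and the median was -0.20. Next among its bright members, each under 2-fold, came some feedback inhibitors and subunits that NF-κB itself induces. Nfkbie gave 1729 and 932, Bcl3 3625 and 1991, Relb 3026 and 1720, and Nfkb2 4435 and 2933. Tnfaip3, named above among the targets, was near control. The kinases of the pathway, Chuk (6163 and 6384), Ikbkb (674 and 594) and Map3k7 (2978 and 3063), and the subunit Rela (21966 and 20931) were near control. Among 28 measured β-TrCP substrates, 1 was 2-fold lower, Nfkbia, again near the 2.07% of all compared genes, and the median was -0.04; Ctnnb1, the gene of β-catenin, gave 9625 and 9331. Of 24 measured cytokines and colony factors, 5 were lower and 1 higher, beside 2.07% and 2.46% of all compared genes, with a median of -0.27. Only 2 of the 24 were bright, and neither was 2-fold apart. Ifnb1, interferon β, gave 410 in L1210-Control and was not well above background in L1210-Fbxw11a, at least 28.6-fold lower, and its signals in the other two lines were 4.03 and 2.70. Csf1, the macrophage growth factor, gave 2717 and 1839.

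**Figure D4:**
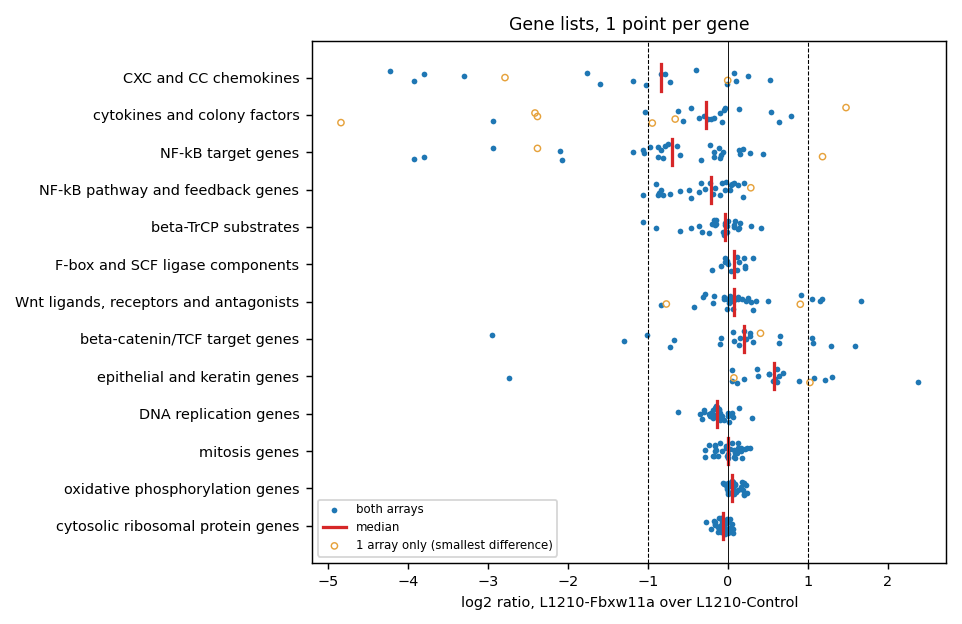
Each point is 1 gene of a list, placed by its log2 ratio of L1210-Fbxw11a over L1210-Control; open points were measured on 1 array only, and the red line is the median. The chemokine (-0.84) and NF-κB target (-0.69) medians lie left of 0, the epithelial and keratin median (0.58) lies right, and the replication, mitosis, oxidative phosphorylation and ribosomal lists stay between the dashed 2-fold lines.

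Other bright genes were lower too, some of them members of 1 family. Prl2c5 and Prl2c1 encode proliferins, growth factors of the prolactin family whose copies are nearly identical, so their probes may read more than 1 copy. Prl2c5 gave 42543 and 17564, 2.42-fold lower, with 38259 and 29863 in the other two lines, and its second probe gave 34194 and 15389. Prl2c1 gave 16065 and 6929, with 13128 and 11510. Here L1210-Fbxw11a stood apart from control more than the other two lines did. Prl2a1, at a middle signal, gave 549 and 58.0, with 244 and 103. Of 13 measured members of this family, a group chosen after its values were seen, 4 were lower and 0 higher, beside 2.07% and 2.46% of all compared genes. Lce1g (3311 and 1232) and Lce1i (1869 and 686), 2.69-fold and 2.72-fold lower, encode proteins of the cornified envelope of skin, and so does Lor, the gene of loricrin, at 347 and 52.0. Of 16 measured late cornified envelope genes, also grouped after their values were seen, 4 were lower and 0 higher (2.07% and 2.46% of all compared genes), 5 lay above 0 and the median was -0.099; Lce1a2 gave 5115 and 4700. U90926, a long noncoding RNA on chromosome 5, gave 2219 and 349, 6.35-fold lower, with 410 and 512. Fam213a, a peroxiredoxin-like protein, gave 7875 and 2313, a log2 ratio of -1.77, with 1948 and 2350. The unnamed gene models Gm10634 (1127 and 479) and Gm8995 (1777 and 812) were 2.35-fold and 2.19-fold lower.

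At middle signals, from 200 to 1000, 77 of 3543 genes were higher (2.17%) and 46 lower (1.30%). The largest falls were in Sema4f, an axon guidance gene (326 and 23.2), and in Cxcl2 and Prl2a1 given above, followed by the protease inhibitors Serpina3m (209 and 25.9) and Serpina3g (441 and 79.0), the survival gene Bcl2a1d (507 and 87.0), Ccdc169 (335 and 54.6) and Cck, which encodes a gut and brain peptide (210.1 and 40.5). Edn1, the vasoconstrictor endothelin, was read by 10 spots, 384 ± 17.3 in L1210-Control and 49.6 ± 4.54 in L1210-Fbxw11a (SD over spots), 7.73-fold lower, with 148 and 155 in the other two lines. Its fall was far larger than the spread between spots, which leaves out differences between cultures.

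The bright genes that were higher belonged to many families. Klhl30, a kelch family gene, gave 379 and 2209, 5.82-fold higher, with 1295 and 1386 in L1210-Fbxw11c and L1210-Fbxw11d. Krt27, a hair follicle keratin, gave 449 and 2329, 5.18-fold higher, with 1283 and 1616. Ccdc80, a secreted matrix protein, gave 361 and 1610, 4.47-fold higher, with 492 and 505. Cpn1, a carboxypeptidase of plasma, gave 279 and 1063, with 680 and 798. Cd81, a tetraspanin that forms part of the B cell coreceptor, gave 451 and 1709, 3.79-fold higher, with 716 and 858. Myo1g, a myosin of blood cell membranes, gave 1320 and 4461, 3.38-fold higher, with 1932 and 1979. Tnnt2, the cardiac troponin T gene, gave 431 and 1284, with 422 and 526.

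Anxa8, an annexin that binds membranes in the presence of calcium, was read by 10 spots at 4962 ± 92.3 and 13752 ± 496 (SD over spots), 2.77-fold higher, and its second probe was 2.52-fold higher. The other two lines gave 11548 and 10527, near L1210-Fbxw11a. Hsd11b1, which regenerates active glucocorticoid, also had 10 spots, 596 ± 19.5 and 1445 ± 68.7, 2.43-fold higher, but the other two lines gave 554 and 692, near control. Col1a2, a chain of type I collagen, gave 888 and 2419 and was higher still in the other lines, at 3819 and 3688. The remaining genes by size were Pla2g2e, a secreted phospholipase (1239 and 3141), Oasl1, an interferon-stimulated gene (414 and 1047), Wisp1, a matrix protein and Wnt target (455 and 1114), and Tmem40 (648 and 1562), whose second probe began 6 bases away and was also higher.

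The bright rise with the highest signal was in Snhg6, a noncoding RNA whose introns hold a small nucleolar RNA. It gave 13503 for the control line and 39964 for L1210-Fbxw11a, 2.96-fold above control, with 13893 and 13345 in the other two lines, and the 3 other arrays lay close together. A single 60-base oligo read it at chr1:9932175-9932234 (mm9). Other host genes of small nucleolar RNAs, grouped after their values were seen, differed: Snhg10 gave 2466 and 4116, Snhg5 1848 and 2724, Snhg1 2895 and 2805, and Snhg7 1885 and 1451. Of 10 measured, 1 was 2-fold higher and 1 lower, beside 2.46% and 2.07% of all compared genes. Pvt1 is a noncoding RNA next to Myc on chromosome 15. Its brightest probe gave 2762 and 6178, with 2908 and 2817 in the other two lines, 2.24-fold above control in L1210-Fbxw11a and near control elsewhere; on the mean of its probes the log2 ratio was 0.96, under the 2-fold line. Several oligos tile the region, most of them unnamed in the files, and those that bear on the pattern are shown with their mm9 positions, followed by that of Snhg6.
Pvt1 region, chr15:62074025-62074084: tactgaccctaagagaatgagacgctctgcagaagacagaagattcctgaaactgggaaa
Pvt1, chr15:62081020-62081079: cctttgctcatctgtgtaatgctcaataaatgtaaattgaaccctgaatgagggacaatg
Pvt1 region, chr15:62082411-62082470: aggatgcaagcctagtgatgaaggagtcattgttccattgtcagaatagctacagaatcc
Pvt1 region, chr15:62091014-62091073: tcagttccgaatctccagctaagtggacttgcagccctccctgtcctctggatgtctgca
Snhg6, chr1:9932175-9932234: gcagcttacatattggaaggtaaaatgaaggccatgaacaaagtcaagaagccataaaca
The first 3 of these were 2.12-fold, 2.24-fold and 2.20-fold higher in L1210-Fbxw11a, and the fourth, further along, gave 1931 and 2020, 1.05-fold. The oligo at chr15:62082471-62082530 was printed under 2 probe names and gave 1.66-fold and 1.69-fold, while in L1210-Fbxw11d the pair gave 819 and 910. Beyond it, 6 probes over 200 on the same strand had log2 ratios from -0.52 to 0.50. Nearer to Myc on that strand, at 49.4, 49.5, 97.9 and 117.8 kb from its probe, the ratios were -0.23, 0.15, 0.31 and 0.33. The last of these probes was the brightest in the region, at 19243 and 24230. Myc itself, with 11006 and 10371, was 1.06-fold lower.

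**Figure D5:**
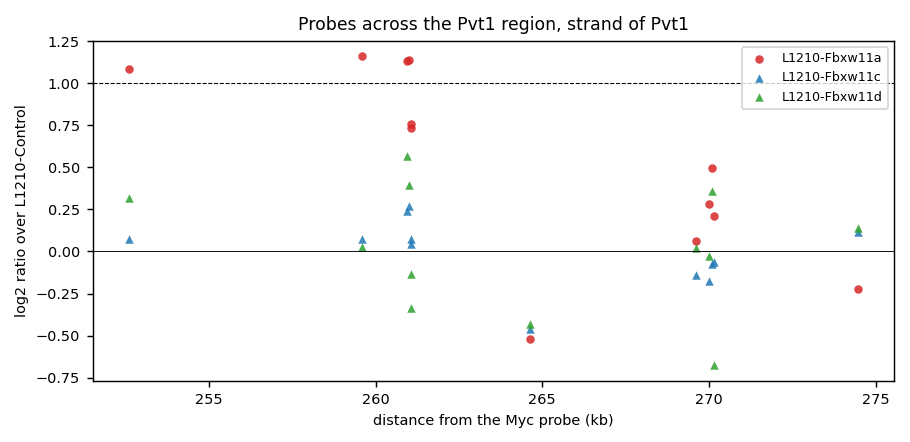
Log2 ratios over L1210-Control for probes over 200 on the strand of Pvt1 from 252.6 kb on, by distance from the Myc probe in kb. Colours mark L1210-Fbxw11a (red circles), L1210-Fbxw11c (blue) and L1210-Fbxw11d (green). Probes nearer to Myc are given in the text. From 252.6 to 261.1 kb the 6 red points lie between 0.73 and 1.16, and from 264.6 kb on they lie between -0.52 and 0.50.

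Most epithelial and keratin genes differed from control by less than 2-fold. Of 22 measured, 5 were 2-fold higher, of which only Krt27 was bright, and 1, Lor, was 6.67-fold lower, and 21 lay above 0, with a median of 0.58, beside 2.46% higher and 2.07% lower of all compared genes. The list's summed signal was 139363 in L1210-Control and 212958 in L1210-Fbxw11a, most of it from Krt8 and Krt18, neither of which reached 2-fold, and whether more cells of such a kind or more RNA per cell accounts for this cannot be told apart in bulk RNA. Beside Krt27, the called members were Krt5, a keratin of basal epidermis (122 and 302), Epcam, an epithelial adhesion gene (101 and 236), Krt6b (53.4 and 113, under 2-fold with spike-in centring) and Dsg3, a desmosomal cadherin (36.9, measured in L1210-Fbxw11a only). The bright keratins Krt8, Krt18 and Krt16 were 1.61-fold, 1.47-fold and 1.43-fold higher, with L1210-Fbxw11c and L1210-Fbxw11d also above control, Krt20 was 1.85-fold higher (1280 and 2370) with 1528 and 1109 in the other two lines, Krt42, Krt19 and Krt85 were 1.45-fold, 1.29-fold and 1.24-fold higher, and Krt222 (2536 and 2046) and Krt73 (1292 and 1105) were below control. Lamb3, a laminin chain of basement membranes, gave 2035 and 4122, 2.03-fold higher but under 2-fold with spike-in centring. L1210-Fbxw11c and L1210-Fbxw11d gave 2326 and 2321. Serpinb genes, which encode intracellular protease inhibitors, were grouped after the fact: 2 of 19 were higher and 0 lower, beside 2.46% and 2.07% of all compared genes, and 13 lay above 0. Serpinb9d was 2.34-fold higher (1171 and 2738), and Serpinb1a was 1.82-fold higher (1694 and 3086) against 1673 and 1677 in the other two lines.

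Small proteins of the Ly6 and uPAR family, also grouped after their values were seen, held 4 of 20 that were higher and 2 lower, beside 2.46% and 2.07% of all compared genes. Lypd8, an antibacterial protein of the colon, gave 38.7 and 490.4, 12.7-fold higher, with 53.9 and 53.5. Slurp1, a secreted skin protein, gave 1584 and 3751, with 726 and 1409, and its neighbour on chromosome 15, Lypd2, gave 248 and 586, with 166 and 189. For these 3 genes L1210-Fbxw11a was the highest of the 4 arrays. Further middle rises were Cep112 (40.2 and 409), Slc17a6, a glutamate transporter of synaptic vesicles (63.3 and 515), A230056J06Rik (20.8 and 239), Cldnd2 (41.4 and 290.1) and Ltb4r2, a leukotriene receptor (58.1 and 260.1), and for each of these the other two lines gave at most 115. Also higher were 4930552P12Rik (43.8 and 239), Sh3tc1 (41.7 and 214) and the olfactory receptor Olfr18 (60.3 and 281). Gm2085 was different, with 45.5 and 256 beside 223 and 285.

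In the Wnt pathway, 4 of 32 measured ligands, receptors and antagonists were 2-fold higher and 0 lower, beside 2.46% and 2.07% of all compared genes. The median was 0.08, -0.052 with spike-in centring and -0.0073 without the filter on dim probes. The 4 called members were the ligands Wnt2b (41.1 and 131), Wnt11 (102 and 232) and Wnt16 (78.4 and 175), and the antagonist Dkk1 (67.9 and 141, under 2-fold with spike-in centring). None of the 4 was bright, and of all probes from 100 to 300 4.98% were higher. In the other two lines Wnt2b gave 10.6 and 18.6 and Dkk1 gave 4.41 and 2.07, all below control. The bright members, such as Wnt10a (17959 and 17335), Fzd2 (3180 and 3298) and Lrp5 (2589 and 2580), were at most 1.04-fold apart. Of 23 measured β-catenin and TCF targets, 4 were higher and 3 lower, beside 2.46% and 2.07% of all compared genes, with a median of 0.20 that was -0.0073 without the filter on dim probes. Lgr5, an intestinal stem cell receptor, gave 207 and 621, with 443 and 376, and Wisp1 and Dkk1 are named above. Edn1 was the largest fall of this list, which counts it as a target. Ccnd1, the gene of cyclin D1, gave 12358 and 14999, 1.21-fold higher, and Id2 2694 and 4223, 1.57-fold higher.

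For genes measured on 1 array only, each fold is a bound against the floor and rests on a single signal. Higher in L1210-Fbxw11a were Krtap6-2 (321, at least 17.7-fold), Zfp526 (309, at least 17.1-fold), Tac4 (283, at least 15.7-fold), Ptprz1 (248, at least 13.7-fold) and Olfr1497 (207, at least 11.4-fold). All 5 were at most 15.9 on each of the other 3 arrays. Lower were Kpna7, an importin (666, at least 46.4-fold), Ifnb1, Olfr102 (209, at least 14.5-fold), Zkscan16 (189, at least 13.2-fold) and Olfr822 (185, at least 12.9-fold). Of 392 measured olfactory receptors, 24 were higher and 26 lower. Among all compared genes 2.46% were higher and 2.07% lower, and among probes of 30 to 100 the shares were 6.13% and 5.88%.

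Beside 2.46% higher and 2.07% lower of all compared genes, or 0.424% and 0.218% of bright genes, many lists held 0 genes 2-fold apart. These were the G1 cyclins and their kinases and inhibitors (22 measured), DNA replication (34), mitosis (32), antigen presentation (19), heat shock (19), glycolysis (24), oxidative phosphorylation (32), folate (22), proteasome (33), ribosomal protein (36), JAK-STAT (29), B lineage (13) and mast cell and basophil (12) genes. The DNA replication list had 28 of 34 members below 0 and a median of -0.14, and the oxidative phosphorylation list had 25 of 32 above 0 and a median of 0.06, which was below 0 with spike-in centring. Other lists held 1 or 2 calls beside those named. Interferon-stimulated genes had 2 higher of 30, beside 2.46% of all compared genes, with a median of -0.02. They were Oasl1 and Ifit3 (66.7 and 144), and Ifit3 missed the 2-fold line with spike-in centring. Single calls above 100 were Cyp11a1, which starts steroid synthesis (95.2 and 347), Me3, a mitochondrial malic enzyme (63.2 and 249), Slc7a11, the cystine transporter (167 and 46.7), Cd28, a T cell costimulator (192 and 85.5), Casp4, an inflammatory caspase (360 and 160), Cebpe, a granulocyte factor (65.2 and 151), Hba-a1, an α-globin (78.2 and 171), Itga2b, a platelet integrin (27.9 and 104), and Sema3a (100.0, measured in L1210-Fbxw11a only).

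Across 8716 genes that were bright on any of the 4 arrays, L1210-Fbxw11a lay 2-fold or more above each of the 3 others for 10 genes (0.115%) and below each for 2 (0.0229%). The same counts were 9 and 10 for L1210-Control, 0 and 0 for L1210-Fbxw11c, and 4 and 10 for L1210-Fbxw11d. The 10 genes were Ccdc80, Snhg6, Tnnt2, Slurp1, Myo1g, AW011956, Pvt1, Hsd11b1, Fhod3 and Dynap, with gaps to the next array from 3.19-fold for Ccdc80 and 2.88-fold for Snhg6 to 2.01-fold for Dynap. Dynap fell under the 2-fold line against control with normexp, median centring, spike-in centring and the authors' values. The 2 genes were Cxcl3, with a gap of 2.49-fold, and Farp1, which gave 936 and 408, with 823 and 837 in the other two lines, and whose log2 ratio was -0.77 on the mean of its probes. Cxcl1, Cxcl5 and Cxcl16 were not in this set because L1210-Fbxw11c and L1210-Fbxw11d were low too. Cxcl2 could not enter it, since it was not bright on any array.

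A second oligo for the same RNA, on the same arrays, checked the probe rather than the culture. Among bright genes with 2 probes well above background on both arrays, 10 were called, and the second probe pointed the same way in 10 and reached 2-fold in 8 (Anxa8, Gm1966, Gvin1, Lce1i, Pla2g2e, Prl2c5, Tmem40 and Wisp1). Of 22 such genes at middle signals, 18 second probes pointed the same way and 7 reached 2-fold. Of 25 below 200, 16 pointed the same way, 3 reached 2-fold and 2 reached 2-fold in the opposite direction. Cxcl1, Cxcl2, Cxcl3, Cxcl5, Nos2, Nfkbia and Snhg6 had 1 probe each. At Gm10639 the dimmer probe was 2.67-fold higher (4091 and 10930) and the brighter was 1.39-fold higher (109771 and 152809).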

How the data were processed

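Total RNA of each line was labelled with Cy3 and hybridised to 1 Agilent mouse array with 60-base probes annotated on mm9. The deposited scanner files hold intensity values that the authors made with Agilent Feature Extraction, version 9.1 per the labels and 10.7.1.1 per the file headers, whose processed signal is already background-corrected. The authors also deposited normalized log2 values of the same arrays, used only as an alternative. Here, spots marked as outliers were left out, spots of 1 probe were averaged, and log2 of the processed signal was taken less that of each array's 75th percentile. A probe counted as well above background where at least 0.5 of its spots were. A gene, by deposited symbol, was read by its brightest probe. A bound for a gene measured on 1 array used the higher of the floor and its own signal.

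Calls were 2-fold or more, with no test, since each line had 1 array; the number of arrays limits the precision. Genes were named by rule: the 15 largest folds each way among bright genes, the 10 each way from 200 to 1000, the 5 largest bounds each way, called members over 100 of 38 gene lists, the SCF list, and bright genes apart from all 3 other arrays. The comparison, the lists and the rule were chosen with earlier results of these data known. Motifs were searched in RefSeq promoter windows. Alternatives were normexp background correction (offset 50), the authors' values, centring on the array median, quantile normalization, outlier spots kept, other filters, folds and brightness limits, the mean of a gene's probes, and, chosen after seeing the data, centring on spike-in probes and a higher floor. Python 3.11.15 with numpy 2.4.6, pandas 2.3.3 and matplotlib 3.10.9, and R 4.3.3 with limma 3.58.1, were used.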

Additional observations from a re-analysis of the deposited data

Results flagged for a closer look

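Among the named genes, 4 lay 2-fold or more above the control array in L1210-Fbxw11a and 2-fold or more below it in another line, and the comparisons share that array. Slurp1 had a log2 ratio of 1.24 in L1210-Fbxw11a and -1.13 in L1210-Fbxw11c. Olfr18, an olfactory receptor, had a log2 ratio of 2.22 in L1210-Fbxw11a and -1.01 in L1210-Fbxw11d, which lay on another slide. Wnt2b had 1.67 in L1210-Fbxw11a, a bound of -1.47 in L1210-Fbxw11c and -1.14 in L1210-Fbxw11d. Dkk1 had 1.05 in L1210-Fbxw11a and bounds of -2.19 and -2.71 in the other two lines. Wnt2b and Dkk1 were dim. With 1 array a line, none of these differences was tested.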

How the results depend on the processing

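No paired analysis was possible because each line had 1 array. Counts are given as higher and then lower in L1210-Fbxw11a. Bright probes numbered 174 and 73 at 1.5-fold, 6 and 7 at 3-fold, 25 and 12 with a signal over 2000, and 20 and 8 with a signal over 1000 on both arrays, and 64 and 36 with a signal over 500. All probes numbered 2442 and 2327 at 1.5-fold, 431 and 456 at 3-fold, 2849 and 2253 without a filter on dim probes, 260 and 259 with normexp, and 516 and 463 where both arrays had to be above background. Genes numbered 1074 and 871, 179 and 189, 1170 and 861, 129 and 123, and 247 and 201 in the same order. Spike-in centring, chosen after seeing the data, gave median log2 ratios of -0.96 for chemokines, -0.82 for NF-κB targets, -0.33 for the NF-κB pathway, -0.052 for the Wnt list and 0.45 for the epithelial list. Without the filter the chemokine and NF-κB target medians were -0.36 and -0.33, and with normexp -0.60 and -0.53, with 0.44 for the epithelial list. Signs turned without the filter for the Wnt (-0.0073), TCF target (-0.0073), erythroid and platelet (-0.13) and mast cell and basophil (-0.070) medians, and for the erythroid and platelet median with both arrays above background (-0.12), and lists with medians nearer to 0 also turned under 1 or more settings, mostly spike-in centring. The causes were not tested. No named gene changed direction under the scaling, background, probe-averaging and outlier-spot alternatives. Normexp took 14 of 53 named dimmer genes and 2 of 50 bright ones below 2-fold (Ier3, -0.99, and Dynap, 0.93). Spike-in centring took Dkk1, Ifit3, Krt6b and Dynap below it, and also Lamb3, which the naming rule did not cover. Median centring and the authors' values took Dynap below it. Of the 63 bright calls, 52 were shared with normexp, 62 with quantile normalization, 61 with median centring, 57 with the authors' values and 49 with spike-in centring. Pvt1 had a log2 ratio of 0.96, and Farp1 of -0.77, on the mean of its probes.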
